A study of Mus musculus with 4 samples.

Results

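This account follows 10 genes for secreted angiogenic and growth factors through the leukocytes of the mouse ovary: Vegfa, Vegfb, Pdgfb, Igf1, Hbegf, Areg, Tgfb1, Osm, Thbs1 and Adm. They were chosen by symbol, and all 10 were found among the 32285 genes of the count table, of which 21790 had at least 1 UMI (unique molecular identifier, 1 per captured transcript) in the cells used. The cells came from female C57BL/6J mice aged 10 to 12 weeks, and the ovaries were taken 48 h after treatment. The gonadotropin group had received gonadotropin, the class of hormone that drives follicle growth and ovulation, whose kind and dose the labels do not give. The untreated group had received saline, and both groups held 5 mice without any genetic change. Viable cells carrying CD45, the surface protein of leukocytes, were sorted, antibody-linked hashtags marked which mouse a cell came from, and each group's 5 mice went into 1 droplet library.

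The mouse was the replicate in every comparison, but treatment, pool and library cannot be told apart in this design. After filtering, 2423 gonadotropin and 2495 untreated cells were assigned to 1 mouse, with a median of 7034 UMIs per gonadotropin cell and 7664 UMIs per untreated cell. A mouse gave 290 to 828 cells and 2608262 to 7097779 UMIs in the gonadotropin group, and 296 to 726 cells and 2559097 to 6500466 UMIs in the untreated group. Each cell was given a type from sets of marker transcripts that contain none of the 10 genes, so types are called "like". The CD45 sort could be checked against markers of other ovarian cells. No cell held 3 markers of stroma, endothelium or surface epithelium, 1 held 3 of granulosa cells and 2 held 3 of luteal or theca cells. A single cell held 3 platelet markers. Endothelial markers summed to 158 to 233 CPM in the gonadotropin mice and 184 to 211 CPM in the untreated mice, mainly Pecam1, which leukocytes also carry (3129 of 3135 such UMIs in B-2-like cells). Red cell transcripts differed between the groups, at 47.3 to 19998 CPM (counts scaled to a common total of summed UMIs) in the gonadotropin mice and 4.30 to 6.14 CPM in the untreated mice, with 26 cells holding 3 or more such markers. The 2 libraries shared 4 barcodes, 2 of them among the cells used.

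Growth and repair of the ovary around ovulation depend on new vessels, and the factors followed here act at different steps of that process. VEGF proteins drive endothelial growth, PDGF-B recruits the pericytes that coat new vessels, and adrenomedullin widens vessels and tightens endothelium, while thrombospondin-1 restrains vessel growth and releases TGF-β from its latent form. IGF-1 supports growth of follicle cells, HB-EGF and amphiregulin are ligands of the EGF receptor, and oncostatin M is a cytokine of the interleukin-6 family that signals through the gp130 receptor chain.

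Each factor had its own set of leukocyte sources, and 8 of the 10 were rare transcripts in these cells. A Tgfb1 UMI was found in 2364 cells, or 48.1% of those used, and a Vegfb UMI in 384 cells (7.81%). The next were Pdgfb with 296 cells (6.02%) and Osm with 193 cells (3.92%). Adm was seen in 114 cells (2.32%), Thbs1 in 82 (1.67%), Igf1 in 78 (1.59%), Vegfa in 57 (1.16%), Hbegf in 56 (1.14%) and Areg in 18 (0.366%). Most UMIs of Adm lay in B-1-like cells, most of Pdgfb in NK-like cells, most of Igf1 and Thbs1 in macrophage-like and monocyte-like cells, and those of Tgfb1 in every type. The counts are of transcript ends, so levels are compared between cell types for 1 gene and not between genes.

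**Figure D1:**
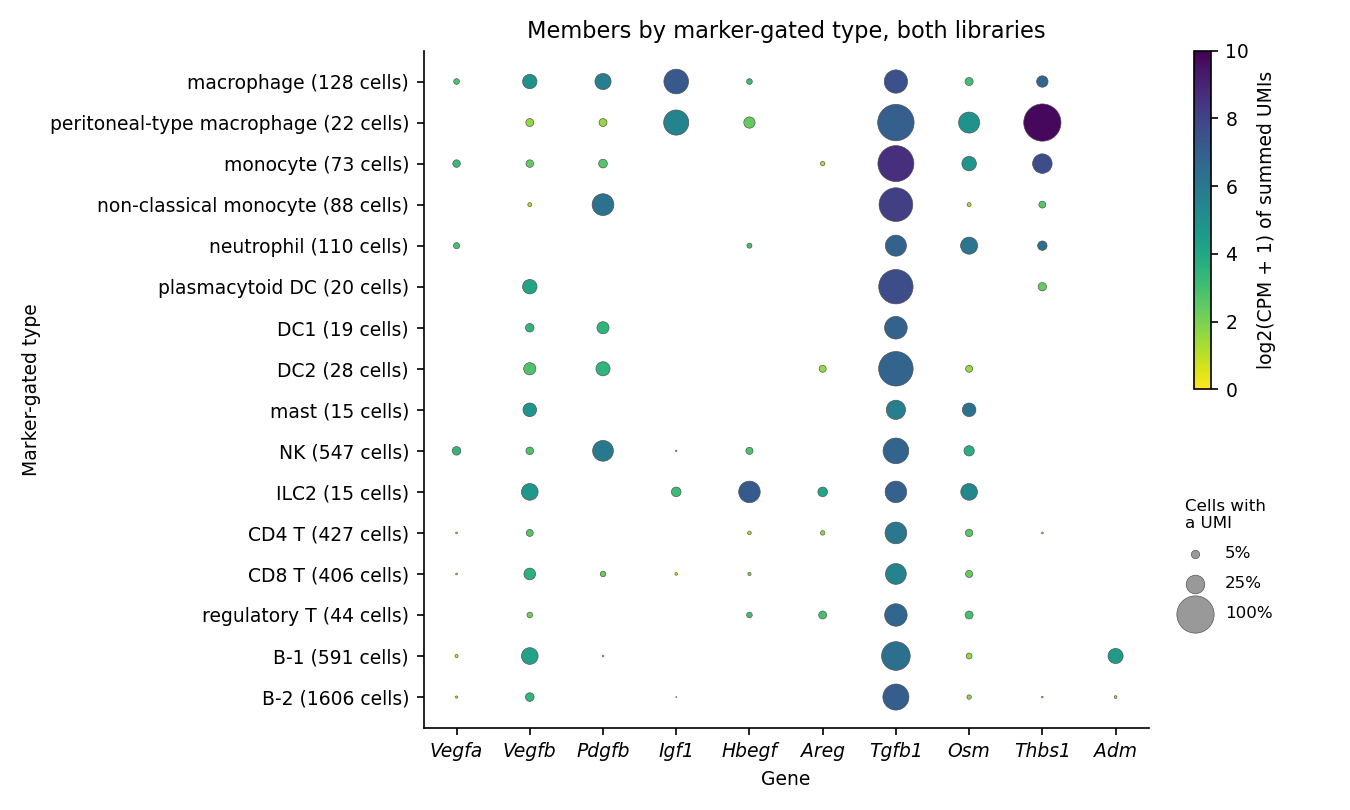
Each of the 10 genes (columns) in 16 marker-gated cell types (rows, with the number of cells of both libraries). Colour gives log2(CPM + 1) of the UMIs summed over the type and dot area the share of its cells with a UMI; Tgfb1 has a dot in every row, Adm in the 2 B cell rows only, and Thbs1 is darkest in peritoneal-type macrophages at 888 CPM.

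Vegfa, the main growth factor of endothelial cells, was led by NK-like cells. Their gate takes natural killer (NK) cells and group 1 innate lymphoid cells together and does not split them. NK-like cells held 39 of its 87 UMIs (44.8%), in 29 of 547 cells (5.30%, 95% exact interval 3.58 to 7.53%, median 6788 UMIs per cell). B-2-like cells, the conventional B cells, served as a measure of stray RNA and had a Vegfa UMI in 0.374% of 1606 cells at a median of 5707 UMIs. Over the 10 mice Vegfa averaged 8.94 ± 3.59 CPM in NK-like cells, against 0.918 ± 1.08 CPM in B-2-like, 0.570 ± 1.10 CPM in B-1-like, 0.209 ± 0.660 CPM in CD4 T and 0.151 ± 0.478 CPM in CD8 T cells (SD). NK-like cells were the higher in 10 of 10 mice in each of these 4 comparisons (two-sided exact sign-permutation test, p = 0.00195, the smallest that 10 mice can give, adjusted p = 0.0154 over 150 comparisons of the genes between types). Myeloid values rested on few cells: monocyte-like cells reached 8.59 CPM with 8 UMIs in 3 cells, and 1 cell of unresolved myeloid type held 9 UMIs.

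Vegfb, a relative of Vegfa that binds the receptor encoded by Flt1, was spread over lymphocytes. The B lineage held 278 of its 458 UMIs (60.7%), and B-1-like cells alone held 152, with a UMI in 118 of 591 cells (19.97%, interval 16.8 to 23.4%). B-1 cells are the self-renewing B cells of body cavities, and here their median of 14086 UMIs was well above that of B-2-like cells. Vegfb averaged 17.1 ± 8.51 CPM in B-1-like cells, against 6.32 ± 5.39 CPM in NK-like cells (higher in 10 of 10 mice, exact adjusted p = 0.0154) and 5.96 ± 6.63 CPM in CD4 T cells (9 of 10 mice, exact adjusted p = 0.0366, or 0.0517 among 430 comparisons with mice of at least 5 cells, a limit added after seeing the data). The order from B-1-like to CD8 T (11.8 ± 8.73 CPM) and B-2-like cells (9.77 ± 2.62 CPM) was not separated by this test (exact adjusted p = 0.420 and 0.190). Macrophage-like cells stood at 30.1 CPM (95% Poisson interval 19.4 to 44.4, counting error only) from 25 UMIs, and their mice ranged too widely to place them (42.5 ± 53.7 CPM). Neutrophil-like cells held no Vegfb UMI in 110 cells, which allows up to 6.69 CPM.

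Pdgfb, which encodes the B chain of platelet-derived growth factor, had the sharpest boundary between lymphocyte types. NK-like cells held 249 of its 442 UMIs (56.3%), with a UMI in 170 of 547 cells (31.1%, interval 27.2 to 35.1%), while all 2399 cells of the B lineage held 1 UMI and 427 CD4 T cells none. Mononuclear phagocytes, which here join macrophage-like, monocyte-like and unresolved myeloid cells, held another 133 (30.1%). Among them non-classical monocyte-like cells, the patrolling monocytes that stay along vessel walls, reached 73.6 CPM (interval 55.6 to 95.6) with a UMI in 34.1% of 88 cells. Macrophage-like cells reached 52.9 CPM (38.4 to 71.0), whereas 73 classical monocyte-like cells reached 5.37 CPM (1.74 to 12.5).

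Over the 10 mice Pdgfb averaged 63.5 ± 17.5 CPM in NK-like cells, against 0.175 ± 0.554 CPM in B-1-like, 2.80 ± 4.15 CPM in CD8 T and 0 CPM in B-2-like and CD4 T cells (SD). The NK-like level was higher in 10 of 10 mice each time (exact test, adjusted p = 0.0154). With mice of at least 5 cells of a type, a limit chosen after seeing the data, NK-like and non-classical monocyte-like cells gave 64.5 ± 10.6 and 71.2 ± 39.4 CPM over 8 mice and were not separated (4 mice each way, exact p = 0.875).

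Igf1, the growth factor that acts on follicle cells through Igf1r, came from macrophages. Macrophage-like cells held 127 of its 165 UMIs (77.0%), in 56 of 128 cells (43.8%, interval 35.0 to 52.8%), at 153 CPM (127 to 182). Peritoneal-type macrophage-like cells followed with 22 UMIs in 10 of 22 cells at 45.7 CPM (28.6 to 69.1). Classical and non-classical monocyte-like and neutrophil-like cells held none, which allows up to 3.22, 3.94 and 6.69 CPM. Stray RNA was low, with 1 UMI in 1606 B-2-like cells (0.0623%) and none in 591 B-1-like cells.

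Macrophage-like cells were shallow, at a median of 2517.5 UMIs, and 91 of the 128 sat in 1 cluster whose median was 2045 UMIs. That cluster carried the Igf1 signal at 458 CPM, with a UMI in 52.7% of its 91 cells, against 56.7 CPM in the 35 deeper macrophage-like cells that clustered with monocytes. Thinning to 2000 UMIs left out the shallower cells, and of the other 83 macrophage-like cells 32.8% kept an Igf1 UMI. With mice of at least 5 such cells, added after seeing the data, the macrophage-like level averaged 172 ± 134 CPM and was above B-2-like, B-1-like, CD4 T, CD8 T and NK-like cells in 10 of 10 mice (means of 0 to 0.862 CPM, exact adjusted p = 0.0300 over 430 comparisons). The planned limit of 10 cells per mouse left only the 5 gonadotropin mice, where the smallest possible p is 0.0625.

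The 250 bases before the transcript start of Igf1 are shown, with those of Adm and Tgfb1, because these are the most restricted and the broadest of the 10 genes among the 6 that the RefSeq promoter table (build GRCm38.p6) holds. Capitals mark a match on either strand to a GC box (GGGCGG) or to a loose AP-1 pattern (TGANTCA, with any base as N), neither of which contains the other. The Adm window is chr7:110627407-110627656 and the Tgfb1 window chr7:25686752-25687001. The Igf1 window is chr10:87860861-87861110, whose start site lies inside the annotated span of the gene. All 3 are on the plus strand and read 5′ to 3′.
Adm: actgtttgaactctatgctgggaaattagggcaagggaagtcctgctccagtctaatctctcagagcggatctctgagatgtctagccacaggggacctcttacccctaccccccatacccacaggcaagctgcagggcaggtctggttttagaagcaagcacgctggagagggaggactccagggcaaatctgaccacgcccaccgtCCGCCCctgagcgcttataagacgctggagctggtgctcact
Igf1: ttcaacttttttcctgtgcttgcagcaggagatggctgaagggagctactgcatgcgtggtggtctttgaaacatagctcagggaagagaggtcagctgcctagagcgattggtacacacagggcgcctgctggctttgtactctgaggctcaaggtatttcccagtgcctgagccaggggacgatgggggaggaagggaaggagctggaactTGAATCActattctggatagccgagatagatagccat
Tgfb1: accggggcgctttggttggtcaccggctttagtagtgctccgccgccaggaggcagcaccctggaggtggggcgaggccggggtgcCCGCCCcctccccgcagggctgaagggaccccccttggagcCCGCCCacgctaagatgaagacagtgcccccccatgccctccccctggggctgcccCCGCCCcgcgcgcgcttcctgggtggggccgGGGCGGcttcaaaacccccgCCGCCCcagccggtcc
The Tgfb1 window was 75.2% G and C with 5 GC boxes, a number of 4 or more being found in 4.09% of the 32851 windows in the table. The Adm window was 56.8% G and C with 1 GC box, which 32.7% of windows hold. The Igf1 window was 52.8% G and C with no GC box and 1 match to the loose AP-1 pattern, read as TGAATCA. That pattern is matched in 6.75% of windows, and the median window was 52.4% G and C. A hypoxia response element core (ACGTG, in 16.6% of windows) and a cAMP response element (TGACGTCA, in 1.55%) were searched on both strands and not matched in these 3 windows. These are matches of letters in a fixed window and no measure of binding.

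Hbegf and Areg, ligands of the EGF receptor, were found in the fewest cells of the set. T cells of all kinds together held 34 of the 93 Hbegf UMIs (36.6%) in 19 cells, and mononuclear phagocytes held 12 in 8 cells. Among types of at least 20 cells its level was highest in macrophage-like (8.41 CPM) and regulatory T-like cells (7.03 CPM), both from few UMIs. Hbegf was also found in group 2 innate lymphoid cells (ILC2), tissue-resident lymphocytes of repair, where 15 ILC2-like cells held 18 UMIs in 5 cells at 147 CPM (interval 87.2 to 233). A single cell of untreated mouse 5 held 14 of those 18. NK-like cells held 24 Hbegf UMIs in 20 cells (3.66%), and their mean of 6.43 ± 7.04 CPM over 10 mice was above the 0 CPM of B-2-like and B-1-like cells in 8 of 10 mice (exact adjusted p = 0.0451), a call lost among the 430 comparisons with mice of at least 5 cells. The B lineage held no Hbegf UMI in 2399 cells. Areg had 44 UMIs in 18 cells, and 21 of them lay in 1 cell of gonadotropin mouse 5. That cell could not be resolved among T, NK and innate lymphoid cells. Its cluster held 15 ILC2-like cells, 18 T cells with both or neither of Cd4 and Cd8, 3 CD8 T cells and 1 CD4 T cell. The remaining Areg UMIs lay mainly in T cells, with 7 in CD4 T, 2 in regulatory T and 9 in T cells with both or neither of Cd4 and Cd8, while 547 NK-like cells and the B lineage had none.

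Tgfb1, whose product regulates growth and immune responses and is held latent until released, was measured in every type. Its highest levels were in classical monocyte-like cells, at 404 CPM (interval 364 to 447) with a UMI in 93.2% of 73 cells, and in non-classical monocyte-like cells, at 280 CPM (244 to 320) and 81.8% of 88 cells. Plasmacytoid dendritic-like cells followed at 205 CPM (152 to 270) and macrophage-like cells at 182 CPM (154 to 213). B-2-like cells stood lower, at 132 CPM, but their number gave them the largest part of the UMIs, 1277 of 4709 (27.1%).

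Among the lymphocytes Tgfb1 differed between types, though not every neighbour in the order of means was separated. It averaged 132 ± 22.5 CPM in B-2-like, 109 ± 16.3 CPM in NK-like, 84.4 ± 15.98 CPM in B-1-like, 67.1 ± 12.1 CPM in CD4 T and 42.4 ± 13.1 CPM in CD8 T cells (SD, n = 10 mice). The neighbours B-2-like and NK-like did not pass the test (exact adjusted p = 0.127), nor did B-1-like and CD4 T (exact adjusted p = 0.132). NK-like exceeded B-1-like cells in 9 of 10 mice, and CD4 T exceeded CD8 T cells in 9 of 10 (both exact adjusted p = 0.0279). With mice of at least 5 cells, macrophage-like cells at 173 ± 102 CPM exceeded B-1-like, CD4 T and CD8 T cells in 10 of 10 mice (exact adjusted p = 0.0300). Non-classical monocyte-like cells, at 291 ± 78.6 CPM, exceeded each of these 5 lymphocyte types in 8 of 8 mice (exact p = 0.0078, the smallest 8 mice can give, adjusted p = 0.0517).

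**Figure D2:**
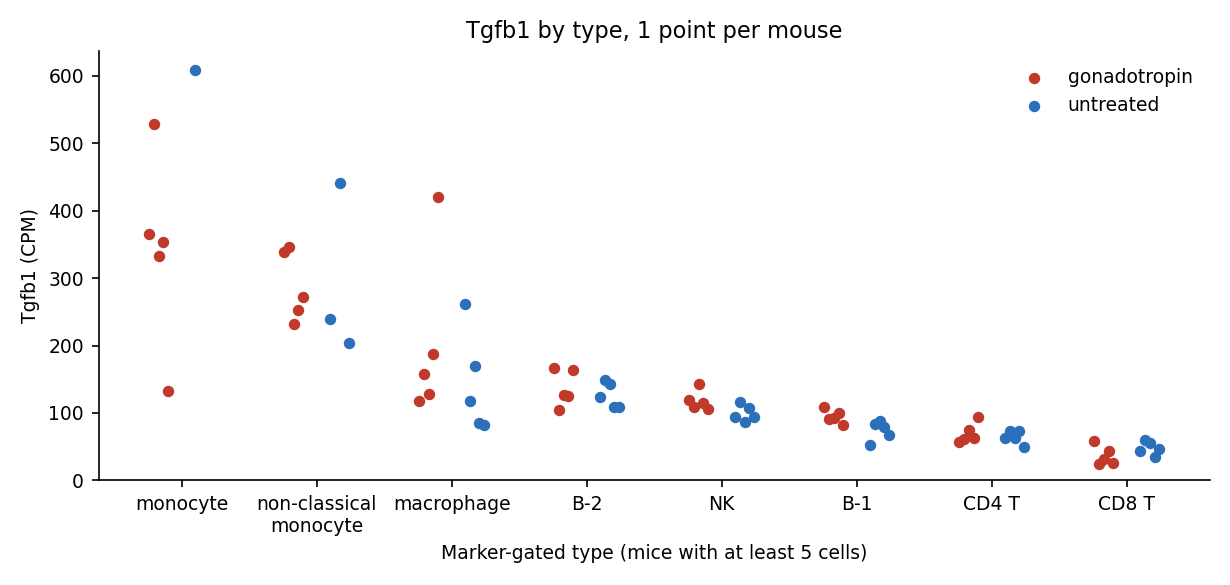
Tgfb1 level in CPM (vertical axis) in 8 cell types, with 1 point per mouse that had at least 5 cells of the type, gonadotropin mice left of untreated mice. Monocyte-like cells lie highest and CD8 T cells lowest, and in B-1-like cells the mice run from 81.5 to 109 CPM in the gonadotropin group and from 52.4 to 87.6 CPM in the untreated group, which overlap.

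Osm, a cytokine of activated myeloid and lymphoid cells, was highest in neutrophils among the types with more than 20 cells. Neutrophil-like cells reached 69.1 CPM (interval 46.9 to 98.1), with 31 UMIs and a UMI in 20.9% of 110 cells, and NK-like cells 12.3 CPM (9.15 to 16.3) from 50 UMIs. In mast-like cells 77.5 CPM rested on 6 UMIs in 2 cells. Peritoneal-type macrophage-like cells stood at 29.1 CPM and monocyte-like cells at 26.9 CPM, while 88 non-classical monocyte-like cells held 1 UMI. NK-like cells averaged 11.5 ± 6.42 CPM over 10 mice, against 2.30 ± 1.53 CPM in B-2-like and 2.05 ± 1.15 CPM in B-1-like cells, and were higher in 9 of 10 mice (exact adjusted p = 0.0366). Over the 430 comparisons with mice of at least 5 cells the same difference had an adjusted p of 0.0517, as had neutrophil-like cells (83.7 ± 69.0 CPM over 9 mice) against B-2-like cells, higher in 8 of 9 (exact test).

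Thbs1, which encodes the vessel-restraining matrix protein thrombospondin-1, was highest in 1 small population that held 43.1% of its UMIs in the cells used. All 22 peritoneal-type macrophage-like cells, the large macrophages of the body cavity, held it, with 428 UMIs and 888 CPM (interval 806 to 977), and 73.5% still held a UMI after thinning to 2000. Monocyte-like cells reached 202 CPM (174 to 233) with a UMI in 20 of 73 cells, and macrophage-like cells 108 CPM (87.0 to 133) with a UMI in 12 of 128. Of the UMIs in macrophage-like cells, 89 lay in gonadotropin mice and 1 in untreated mice. Neutrophil-like cells held 38 UMIs in 7 of 110 cells. Outside the myeloid cells it was near 0, with 3 UMIs in 1606 B-2-like cells and none in 591 B-1-like or 547 NK-like cells, so stray RNA was not visible.

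Single cells weighed heavily on Thbs1: the 5 highest cells held 38.0% of its 994 UMIs. The highest was 1 unresolved myeloid cell of untreated mouse 5 with 142 UMIs, which also held the highest counts of Vegfa and Osm of any cell, 9 each. Peritoneal-type macrophage-like cells themselves ranged from 310 to 1019 CPM in 4 gonadotropin mice, with 1 to 4 cells each, and from 566 to 1732 CPM in 5 untreated mice, with 1 to 6 cells each. The groups overlapped and had too few cells for a test.

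Adm, the vasodilator peptide adrenomedullin, was a B cell transcript. B-1-like cells held 183 of its 211 UMIs (86.7%), in 97 of 591 cells (16.4%, interval 13.5 to 19.6%), at 21.6 CPM (18.6 to 24.999). B-2-like cells held 13 UMIs in 1606 cells (0.560% of cells, 1.35 CPM), and B cells with an intermediate number of B-1 markers lay between at 5.26 CPM. The only other gated source was 1 of 4 migratory dendritic-like cells, with 4 UMIs. T cells, NK-like cells, macrophage-like cells and neutrophil-like cells held none, which allows up to 0.740 CPM in NK-like and 3.61 CPM in macrophage-like cells. Over the 10 mice Adm averaged 23.9 ± 16.8 CPM in B-1-like and 1.08 ± 1.64 CPM in B-2-like cells, and B-1-like cells were higher in 10 of 10 mice (exact adjusted p = 0.0154). B-1-like cells were also the deepest lymphocytes, and after thinning both to 2000 UMIs 3.84% of B-1-like and 0.229% of B-2-like cells held an Adm UMI.

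For 5 genes that reached 50 CPM in some type of at least 20 cells, the genes with the most alike pattern were found by Pearson's r of log2(CPM + 10) over 13 types, as a description among 6172 genes that share the same libraries. Igf1 ran with Folr2 (r = 0.995), Cbr2 (0.981) and C1qb (0.973), all highest in macrophage-like cells; C1qb was among the markers that defined them. Thbs1 ran with F5 (0.951), Padi4 (0.941) and Cd14 (0.938), and Osm with Slfn4 (0.926) and the chemokine gene Cxcl2 (0.898). Tgfb1 was closest to Fis1 (0.934), Morf4l1 (0.897) and Zeb2os (0.895). Pdgfb had the weakest likeness, with Gnb1 (0.862), Extl3 (0.854) and Kcnip3 (0.815).

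The second question was whether gonadotropin changed the factors. In the sum over all CD45+ cells of a mouse, 1 of the 10 genes changed, and it was Adm, which fell. Of the 10, 7 had enough counts to be tested and 1 passed (edgeR quasi-likelihood test, Benjamini-Hochberg adjusted over 11266 genes, 5 mice each), where 9.12% of all genes tested passed, 4.97% higher and 4.15% lower. In such a sum fewer cells of a type and less RNA per cell cannot be told apart, so each gene was also followed within its source.

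Adm stood at 3.18, 2.36, 3.45, 1.55 and 1.74 CPM in the 5 gonadotropin mice, and at 4.65, 7.48, 13.1, 10.2 and 5.85 CPM in the 5 untreated mice. Every gonadotropin mouse lay below every untreated mouse. The means were 2.46 ± 0.845 CPM in gonadotropin and 8.25 ± 3.41 CPM in untreated mice (SD), a log2 fold change of -1.81 ± 0.33 (SE, edgeR adjusted p = 0.0069). B-1-like cells, the source of Adm, were also fewer: they made up 7.83 ± 3.27% of the cells of a gonadotropin mouse and 17.2 ± 4.14% of an untreated mouse, without overlap (exact permutation p = 0.0079, the smallest that 5 against 5 mice can give). After adjustment over 17 types the share did not pass (exact test, adjusted p = 0.135).

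Within B-1-like cells Adm did not pass the test. Its level was 65.4, 14.0, 20.3, 7.67 and 6.99 CPM in the gonadotropin mice and 14.8, 26.8, 29.99, 29.99 and 22.9 CPM in the untreated mice. The groups overlapped, since gonadotropin mouse 1, with 12 UMIs in 13 B-1-like cells, was the highest of all, while the other 4 gonadotropin mice lay below 4 of the 5 untreated mice. The fold change was -0.71 ± 0.37 on the log2 scale (edgeR adjusted p = 0.611), with means of 22.9 ± 24.4 CPM in gonadotropin and 24.9 ± 6.36 CPM in untreated mice. Without that mouse it was -1.16 (adjusted p = 0.148). No member passed within B-1-like cells, among 3 tested, where 0.256% of 7413 genes passed.

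**Figure D3:**
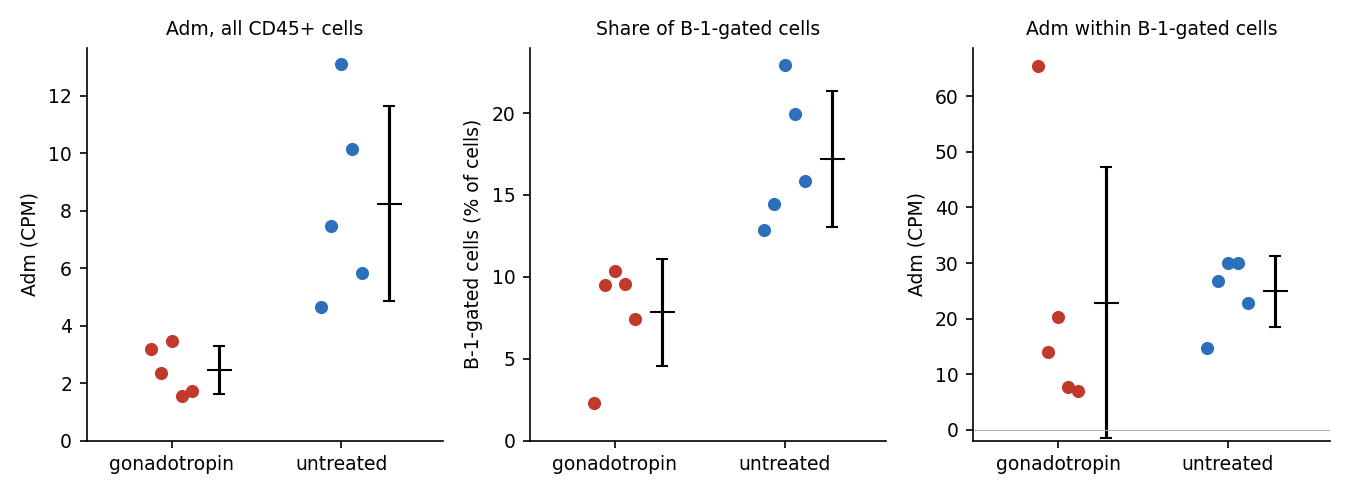
Adm in all CD45+ cells (left, CPM), the share of B-1-gated cells (middle, % of the cells of a mouse) and Adm within B-1-gated cells (right, CPM), with 1 point per mouse and the mean ± SD of 5 mice per group beside it. The groups do not overlap in the first 2 panels; in the third gonadotropin mouse 1 stands at 65.4 CPM above all others.

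To set the share of cells beside the level per cell, each type was given its level over both groups together and mixed in the proportions of each mouse. For Adm this gave 3.64 CPM in gonadotropin and 6.69 CPM in untreated mice, a ratio of 0.544, against a measured ratio of 0.298. For Pdgfb the same mixing gave a ratio of 1.81 against a measured 1.75, and for Igf1 2.31 against 2.57. The ratios of mixing and measurement also lay close for Vegfa (1.53 against 1.48) and Tgfb1 (1.12 against 1.19). They lay apart for Thbs1 (1.73 against 1.24), Osm (1.37 against 1.04), Vegfb (0.894 against 0.651) and Areg (1.35 against 4.02), and on opposite sides of 1 for Hbegf (1.59 against 0.835). These ratios are descriptions without a test.

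Pdgfb was higher without overlap in the gonadotropin mice but missed the threshold. It stood at 15.4, 12.4, 14.2, 12.0 and 17.1 CPM in the gonadotropin mice and at 3.96, 10.7, 9.66, 10.9 and 5.23 CPM in the untreated mice, with means of 14.2 ± 2.12 CPM in gonadotropin and 8.11 ± 3.28 CPM in untreated mice (log2 fold change 0.78 ± 0.25, edgeR adjusted p = 0.0633). The call appeared with DESeq2 (adjusted p = 0.0415) and without untreated mouse 2 (edgeR adjusted p = 0.0487). NK-like cells, the main source, made up 14.7 ± 4.06% of the cells of a gonadotropin mouse and 7.64 ± 1.90% of an untreated mouse (exact permutation p = 0.0317, adjusted p = 0.169).

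Within NK-like cells the Pdgfb level was close in the 2 groups. It was 57.8, 75.4, 62.8, 49.6 and 82.4 CPM in the gonadotropin mice and 28.1, 67.6, 90.1, 64.5 and 56.2 CPM in the untreated mice, so the groups overlapped widely. The log2 fold change was -0.01 ± 0.23 (edgeR adjusted p = 0.9997), and the share of cells with a UMI after thinning to 2000 was 12.4 ± 2.91% in gonadotropin and 12.3 ± 4.06% in untreated mice (exact permutation p = 0.984). Of 2 members tested in NK-like cells none passed, where 0.0187% of 5341 genes did.

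**Figure D4:**
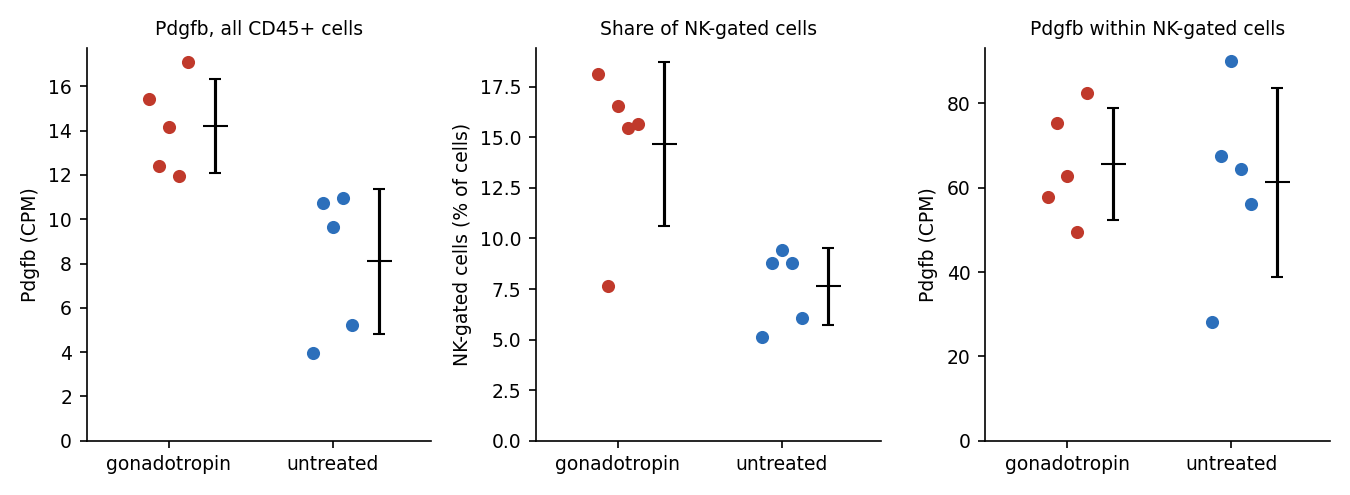
Pdgfb in all CD45+ cells (left, CPM), the share of NK-gated cells (middle, % of the cells of a mouse) and Pdgfb within NK-gated cells (right, CPM), with 1 point per mouse and the mean ± SD of 5 mice per group beside it. Gonadotropin mice lie above untreated mice in the left panel, and the groups overlap in the other 2.

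Igf1 was measured at 5.63, 9.16, 5.37, 2.54 and 11.2 CPM in the gonadotropin mice and at 0.698, 0.959, 8.10, 2.34 and 1.08 CPM in the untreated mice. Untreated mouse 3 reached into the gonadotropin range and the other 4 lay below it. The log2 fold change was 1.40 ± 0.61 (edgeR adjusted p = 0.175), and without that mouse 2.41 (adjusted p = 0.0183). Macrophage-like cells made up 4.16 ± 1.71% of gonadotropin and 1.87 ± 1.022% of untreated cells (exact permutation p = 0.0397, adjusted p = 0.169). Within them Igf1 averaged 203 ± 151 CPM in gonadotropin and 142 ± 123 CPM in untreated mice (log2 fold change 0.48 ± 0.74, adjusted p = 0.999), in a fit with mice of at least 5 cells that was added after seeing the data. The 2 macrophage-like clusters differed in sign, but in the deeper one this rested on 1 cell. The shallow one had 546 CPM in the gonadotropin pool (78 UMIs in 39 cells) and 249.9 CPM in the untreated pool (15 UMIs in 9 cells). The deeper one had 32.1 CPM in the gonadotropin pool (14 UMIs in 6 cells) and 122 CPM in the untreated pool (20 UMIs in 2 cells). Of those 20 UMIs, 18 lay in 1 cell of untreated mouse 3, which had 26 Igf1 UMIs in all. None of 1172 genes passed in that fit (0%), with 21 at an unadjusted p under 0.05, and DESeq2 also called 0.

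The other tested members did not pass in all CD45+ cells. Vegfb averaged 8.93 ± 2.64 CPM in gonadotropin and 13.7 ± 3.28 CPM in untreated mice (log2 fold change -0.66 ± 0.22, edgeR adjusted p = 0.0818). Tgfb1 averaged 123 ± 14.1 CPM in gonadotropin and 104 ± 11.6 CPM in untreated mice (0.19 ± 0.09, adjusted p = 0.198). Osm averaged 6.45 ± 1.04 CPM in gonadotropin and 6.20 ± 2.01 CPM in untreated mice (0.01 ± 0.22). Thbs1 varied most between mice of a group, with 26.4 ± 17.1 CPM in gonadotropin mice against 21.2 ± 20.3 CPM in untreated mice (0.21 ± 0.61). Vegfa, Hbegf and Areg were too rare to test. Vegfa averaged 2.25 ± 1.23 CPM in gonadotropin and 1.52 ± 0.834 CPM in untreated mice. Hbegf averaged 1.84 ± 1.001 CPM in gonadotropin and 2.20 ± 1.71 CPM in untreated mice. Untreated mouse 5 alone stood at 4.77 CPM, with 14 of its 31 Hbegf UMIs in 1 cell, and without it the untreated mean was 1.56 CPM, below that of the gonadotropin mice. Areg averaged 2.13 ± 3.18 CPM in gonadotropin and 0.529 ± 0.427 CPM in untreated mice. Gonadotropin mouse 5 stood at 7.67 CPM, with 21 of its 22 Areg UMIs in 1 cell, and without it the gonadotropin mean was 0.743 CPM; both means without a mouse were added after seeing the data.

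**Figure D5:**
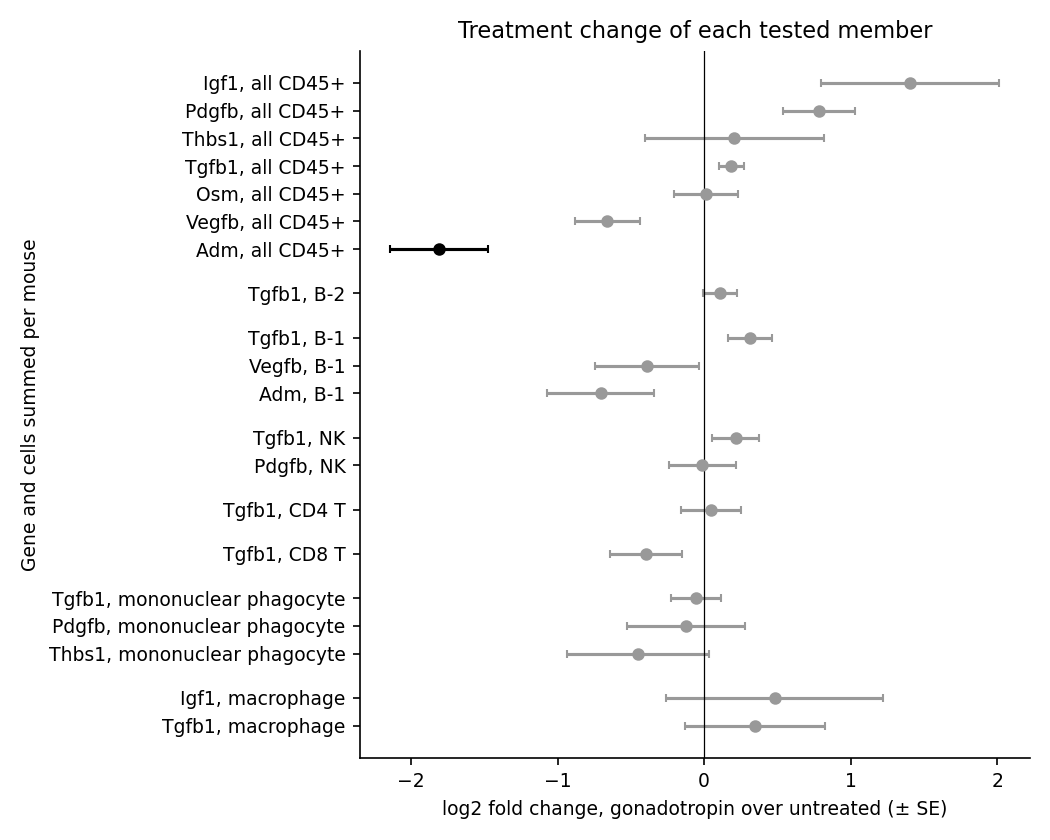
Log2 fold change, gonadotropin over untreated, of each gene that could be tested (points, with bars of 1 SE) in all CD45+ cells and within types, from 5 mice per group. The black point, Adm in all CD45+ cells at -1.81, passed an adjusted p of 0.05 and the grey ones did not.

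Within types the largest set of values was that of Tgfb1, tested in 7 of them and passing in none. In B-1-like cells it stood at 109, 91.0, 92.7, 99.7 and 81.5 CPM in the gonadotropin mice and at 52.4, 84.1, 87.6, 78.4 and 68.0 CPM in the untreated mice. The groups overlapped only between the lowest gonadotropin and the 2 highest untreated mice. The log2 fold change was 0.31 ± 0.15 (edgeR adjusted p = 0.580). The thinned share of B-1-like cells with a Tgfb1 UMI was 17.0 ± 1.65% in gonadotropin and 13.003 ± 2.29% in untreated mice (71.9 ± 5.68% in gonadotropin and 53.7 ± 8.62% in untreated mice before thinning), with an exact permutation p of 0.0159, the smallest of 34 such shares, and an adjusted p of 0.540. In CD8 T cells the sign was the other one, with 36.8 ± 14.3 CPM in gonadotropin mice against 48.0 ± 10.2 CPM in untreated mice (-0.40 ± 0.25, adjusted p = 0.562). Each fit had its own background: 1.39% of 7611 genes passed in B-2-like cells, 0.152% of 4612 in CD4 T cells, 2.11% of 4985 in CD8 T cells and 0.0187% of 5360 in joined mononuclear phagocytes, and no member did.

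In the joined mononuclear phagocytes, a grouping added after seeing the data, Thbs1 averaged 166 ± 93.8 CPM in gonadotropin and 219 ± 158 CPM in untreated mice (log2 fold change -0.45 ± 0.48, edgeR adjusted p = 0.871). Pdgfb averaged 31.0 ± 5.30 CPM in gonadotropin and 34.5 ± 29.2 CPM in untreated mice there (-0.12 ± 0.40). Neither difference was larger than the spread between mice. Macrophage-like cells alone, in mice of at least 5 such cells, gave Thbs1 at 123 ± 106 CPM in gonadotropin mice (89 UMIs). In untreated mice they gave 4.08 ± 9.12 CPM (1 UMI). That limit was added after seeing the data, and the mice of the 2 groups overlapped. Thbs1 did not pass the filter on low counts in macrophage-like cells, so its change there was not tested.

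Receptors, relatives and partners of the factors were followed as a group. Of a list of 58 related genes, 34 could be tested in all CD45+ cells, 2 were higher and 3 lower, beside 4.97% higher and 4.15% lower among all genes tested. The median log2 fold change was 0.08, with 23 of 34 above 0 against 49.4% of all genes tested. Vegfc, the growth factor of lymphatic vessels, rose, with 15.1 ± 5.39 CPM in gonadotropin mice against 5.597 ± 2.65 CPM in untreated mice (log2 fold change 1.41 ± 0.34, edgeR adjusted p = 0.0215). It was found in non-classical monocyte-like (129 CPM) and NK-like cells (65.6 CPM), the types that also held Pdgfb, and within NK-like cells it did not pass (0.74, adjusted p = 0.260). Without gonadotropin mouse 5 or without untreated mouse 5 its adjusted p was 0.0506 and 0.0563.

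The co-receptors of VEGF and semaphorins moved apart. Nrp1 rose, with 39.6 ± 13.7 CPM in gonadotropin mice against 21.2 ± 3.91 CPM in untreated mice (log2 fold change 0.82 ± 0.22, edgeR adjusted p = 0.0365), and was highest in regulatory T-like (411 CPM) and macrophage-like cells (212 CPM). Nrp2 fell, with 13.1 ± 5.21 CPM in gonadotropin mice against 28.7 ± 9.83 CPM in untreated mice (-1.13 ± 0.31, adjusted p = 0.0360). Nrp2 was a B-1-like gene, with 635 UMIs at 75.0 CPM, and within those cells it did not pass (-0.28, adjusted p = 0.645). Leaving out 1 mouse at a time lost the Nrp1 call 8 of 10 times and the Nrp2 call 5 of 10 times, with adjusted p up to 0.0805 and 0.0839.

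Irs2 and Il6st, the other 2 genes that were lower in the sum, also fell within B-2-like cells. Irs2, an adaptor of the IGF-1 and insulin receptors, had 15.5 ± 2.34 CPM in gonadotropin and 24.1 ± 4.37 CPM in untreated mice over all cells (-0.72 ± 0.14, edgeR adjusted p = 0.00798). In B-2-like cells Irs2 had 22.4 ± 4.16 CPM in gonadotropin and 47.2 ± 10.1 CPM in untreated mice (-1.05 ± 0.18, adjusted p = 0.00059). Il6st, which encodes gp130, had 56.3 ± 8.51 CPM in gonadotropin and 82.7 ± 11.4 CPM in untreated mice over all cells (-0.61 ± 0.12, adjusted p = 0.00807). In B-2-like cells it had 18.4 ± 11.1 CPM in gonadotropin and 41.8 ± 14.8 CPM in untreated mice (-1.30 ± 0.25, adjusted p = 0.00335). These were the 2 of 17 listed genes that passed in B-2-like cells, where 1.39% of all genes tested did; the Il6st call was lost when Leiden clusters replaced the marker gate (-0.77, adjusted p = 0.0558). In B-1-like cells Il6st had 107 ± 26.7 CPM in gonadotropin and 129 ± 33.5 CPM in untreated mice and did not pass (-0.34 ± 0.18, adjusted p = 0.612), and Irs2 had too few counts to be tested. Early response genes, which answer to cell handling as well as to signals, also fell in B-2-like cells and in other lymphocytes. Fos had 113 ± 18.4 CPM in gonadotropin and 270 ± 53.1 CPM in untreated mice (edgeR adjusted p = 9.33e-10), and Junb 159 ± 19.5 CPM in gonadotropin and 345 ± 32.5 CPM in untreated mice (edgeR adjusted p = 2.16e-10). Fos was also called lower in B-1-like and CD8 T cells, Junb in B-1-like, CD4 T and CD8 T cells, and Nr4a1 in B-1-like cells. With 1 mouse left out, the log2 fold change in B-1-like cells was -1.39 to -1.19 for Fos and -1.07 to -0.88 for Junb. No early response gene was called in NK-like or macrophage-like cells. The part of the early response in the other changes, that of Calcrl below included, was not tested.

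Calcrl, which encodes 1 chain of the adrenomedullin receptor, fell in B-1-like cells. It had 35.8 ± 23.8 CPM in gonadotropin mice against 77.0 ± 14.6 CPM in untreated mice (log2 fold change -1.09 ± 0.24, edgeR adjusted p = 0.0466). It was the 1 of 21 listed genes that passed there, where 0.256% of all genes tested did, the groups overlapped, and leaving out 1 mouse at a time lost the call 7 of 10 times, with an adjusted p of up to 0.306. No listed gene passed in NK-like, CD4 T or CD8 T cells, joined mononuclear phagocytes or macrophage-like cells, where 15, 20, 20, 23 and 6 were tested. Stray RNA differed between the pools: B-2-like cells of gonadotropin mice held Lyz2, a myeloid transcript, at 34.1 ± 6.36 CPM, and those of untreated mice at 12.4 ± 3.53 CPM. They held Hbb-bs, a red cell transcript, at 30.2 ± 6.54 CPM in the gonadotropin group and 2.87 ± 2.20 CPM in the untreated group. Igf1 and Thbs1, the myeloid members, had 1 and 3 UMIs in all B-2-like cells.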

How the data were processed

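The deposited values are raw UMI counts, left unscaled by the authors. Per the submitters' processing notes, Seurat, Cell Ranger and bcl2fastq were used with build mm10; versions are not given. Mice and hashtag doublets follow the deposited hashtag calls, whose threshold is not given in the sources used here. Of 6468 barcodes, 5031 carried 1 hashtag, and 4918 passed the filters (a minimum of 500 genes, mitochondrial share below 10%); 1348 barcodes of several hashtags and 89 negative ones were left out of every comparison. A cell took a type with at least 3 of its 6 or fewer markers and a lead of 2 over other types, and B-1-like cells needed 3 B-1 markers. NK cells and group 1 innate lymphoid cells shared 1 set of markers, called NK-like here. Clusters (scanpy 1.11.5, Leiden by igraph 0.11.9) served as an alternative.

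For each mouse UMIs were added up across all cells, or across a type of which it had at least 10 cells, and tested with edgeR 4.0.16 in R 4.3.3 (TMM, filterByExpr, quasi-likelihood, Benjamini-Hochberg over all genes tested), with DESeq2 1.42.0 as an alternative. CPM scale each gene's UMIs to the summed UMIs of the same cells. Types were compared within mice by exact permutation of signs of log2(CPM + 10) differences, and shares between groups by exact permutation of 5 against 5 mice (scipy 1.17.1, two-sided). For shares of cells with a UMI, cells were thinned to 2000 UMIs and shallower cells left out. Intervals are 95% Clopper-Pearson or exact Poisson, cover counting error only, and a count of 0 is given a limit of 3 counts. The procedures were tested on simulated data. Positions and promoters were matched by symbol to RefSeq GRCm38.p6. The 10 genes, the 58 related genes and the named genes (all 10, those related genes past the threshold, early response and stray RNA genes, and 3 genes most alike, of which 1 is not reported here) were chosen with earlier results of these data known. The test of a difference in change between types was to be run on members called within a type; as none was, it was not run.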

Additional observations from a re-analysis of the deposited data

Results flagged for a closer look

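In 54 groups of 4 or 5 mice that were examined, 6 held a mouse whose gap to the others was past Dixon's 95% limit. Chance alone flags about 1 in 20 where values are normally distributed. Sparse counts need not be, so the number of flags cannot be set against that rate. Igf1 in all CD45+ cells was 8.10 CPM in untreated mouse 3 (26 UMIs), against 0.698 to 2.34 CPM in the other untreated mice. In its joined mononuclear phagocytes it was 97.0 CPM, against 10.1 to 16.4 CPM. These 2 flags share the same 26 UMIs, of which 18 lay in 1 macrophage-like cell. Adm in B-1-like cells was 65.4 CPM in gonadotropin mouse 1 (12 UMIs in 13 cells), against 6.99 to 20.3 CPM in the other gonadotropin mice. Pdgfb in joined mononuclear phagocytes was 85.8 CPM in untreated mouse 2 (26 UMIs), against 15.8 to 28.4 CPM. Tgfb1 in macrophage-like cells was 421 CPM in gonadotropin mouse 5 (31 UMIs in 19 cells), against 118 to 188 CPM. Thbs1 in macrophage-like cells was 20.4 CPM in untreated mouse 5, which is 1 UMI in 5 cells, and 0 in the other untreated mice.

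Barcodes of 2 or more hashtags, which no comparison uses, held some of the factors at levels that differed between the pools by more than counting error. Pdgfb stood at 9.75 CPM in the gonadotropin pool (117 UMIs) and 5.79 CPM in the untreated pool, Igf1 at 6.42 CPM (77 UMIs) in the gonadotropin pool and 3.25 CPM in the untreated pool, and Tgfb1 at 130 CPM (1562 UMIs) in the gonadotropin pool and 105 CPM in the untreated pool. Thbs1 differed by the most CPM, at 107 CPM in the gonadotropin pool (1278 UMIs, interval 101 to 113) and 22.2 CPM in the untreated pool (219 UMIs, 19.4 to 25.4). Its 1497 UMIs in these barcodes exceeded the 994 in the cells used, on which its sources and treatment comparisons rest. Adm stood at 2.92 CPM (2.03 to 4.06) in the gonadotropin pool and 16.8 CPM (14.3 to 19.5) in the untreated pool. Vegfb was also lower in the gonadotropin pool, at 8.58 CPM (7.01 to 10.4) against 13.3 CPM (11.1 to 15.8) in the untreated pool. These are 693 barcodes of the gonadotropin library and 655 of the untreated library, with no test. The intervals leave out the spread between barcodes and between mice. Thbs1 UMIs lay in 115 barcodes of the gonadotropin pool, with up to 98 in 1 barcode. In the untreated pool they lay in 19 barcodes, with up to 48 in 1.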

How the results depend on the processing

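The fall of Adm in all CD45+ cells passed under each alternative run (adjusted p of 8.62e-05 to 0.0230; log2 fold change -1.95 to -1.57 when 1 mouse was left out). Over 42 changes of named genes, 634 values under alternatives kept the sign 612 times, 581 of them with the same call, 28 with the call lost and 3 with a call gained, and had the opposite sign 22 times. Values of opposite sign were those of Pdgfb in NK-like cells at 0.030 without a filter on low counts, 0.019 with a stricter gate, 0.011 with Leiden clusters and -0.16 to 0.14 with 1 mouse left out; Tgfb1 in CD4 T cells at -0.056 with Leiden clusters and -0.050 to 0.10 with 1 mouse left out; Tgfb1 in macrophage-like cells at -0.10 with a stricter gate and -0.055 to 0.76 with 1 mouse left out. With 1 mouse left out, all CD45+ cells gave -0.091 to 0.16 for Osm and -0.098 to 0.96 for Thbs1, and joined mononuclear phagocytes gave -0.41 to 0.52 for Pdgfb, -0.17 to 0.085 for Tgfb1 and -0.75 to 0.083 for Thbs1. The cause was not tested.

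Counts of genes called moved more. Without a filter on low counts, 183 genes passed in B-2-like, 94 in B-1-like, 90 in NK-like, 57 in CD4 T and 35 in macrophage-like cells and 96 in joined mononuclear phagocytes. DESeq2's test called 33 in B-1-like, 18 in NK-like and 1 in CD4 T cells and 22 in joined mononuclear phagocytes, and DESeq2's size factors in edgeR 4 in CD4 T cells. The stricter gate called 4 in CD4 T cells, and Leiden clusters 9 in NK, 18 in CD4 T and 38 in CD8 T cells. With 1 mouse left out the counts were 682 to 1063 in all CD45+ cells, 52 to 204 in B-2-like, 6 to 19 in B-1-like, 1 to 20 in NK-like, 0 to 23 in CD4 T, 50 to 128 in CD8 T cells, 0 to 10 in joined mononuclear phagocytes and 0 to 0 in macrophage-like cells. Of the comparisons between types, 26 of 150 passed, 17 of 270 with Leiden clusters and 19 to 27 with 1 mouse left out.

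Depth limits the rare factors: Areg rests on 44 UMIs, Vegfa on 87 and Hbegf on 93, and levels in types under 20 cells on few cells with a UMI. No paired analysis was possible because mouse numbers name hashtags of separately pooled animals and the groups share no animal.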

Other observations

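Receptors of the factors had leukocyte sources of their own, given here as levels over both groups without a test. Igf1r was carried by neutrophil-like cells at 800 CPM (interval 719 to 887), with a UMI in 86.4% of 110 cells, above regulatory T-like (204 CPM) and plasmacytoid dendritic-like cells (172 CPM). Flt1, a receptor of VEGF-A, VEGF-B and placental growth factor, was found in non-classical monocyte-like (150 CPM) and classical monocyte-like cells (91.3 CPM), next to 13.4 CPM in neutrophil-like cells. Its ligand gene Pgf had 20 UMIs in B-1-like cells (2.36 CPM). Plasmacytoid dendritic-like cells held Egfr (77.9 CPM, in 6 of 20 cells) and Ramp1 (402 CPM, in 18 of 20 cells), a partner of Calcrl. Lrrc32, which holds latent TGF-β at the cell surface, had 9 UMIs in 44 regulatory T-like cells (31.6 CPM) and 4 in 427 CD4 T cells. Osmr, the oncostatin M receptor chain, had no UMI in B-2-like, B-1-like or CD4 T cells.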
